A study of Mus musculus with 20 samples.

Results

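Ly6Chi and Ly6Clo cells sorted from fibrotic livers were compared in the vehicle arm of a study on MAIT cell inhibition, which names them monocyte-derived macrophages (MoMac). All libraries labelled as vehicle were taken, 5 Ly6Chi and 5 Ly6Clo libraries numbered 11 to 15, which are 10 of the 20 libraries of the series. Each number is carried by 1 Ly6Chi and 1 Ly6Clo library and was taken as 1 mouse, which the sources used here imply but do not state. These male C57BL/6J mice (C57BL/6 in the labels), 10 to 12 weeks old when fibrosis was induced, had received CCl4, a hepatotoxin that scars the liver, for 4 weeks, so that all libraries come from fibrotic livers and no uninjured mouse is part of the comparison. Vehicle was DMSO in PBS, injected before the last CCl4 injection and daily over the 2 days that followed it. Cells negative for Ly6G, CD11c and CD3 and positive for CD11b and F4/80 were sorted by their level of Ly6C, so that the difference in the Ly6C antigen was set by the gate. The other 10 libraries, from mice 16 to 20, followed the same protocol with Ac-6-FP, which binds MR1 and holds MAIT cells inactive, in place of vehicle, and serve here only as mice that the vehicle comparison did not use.

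Ly6Chi monocytes leave the bone marrow through CCR2, enter the injured liver and take part in inflammation and scarring. In the liver many of them lose Ly6C and become Ly6Clo MoMac, which clear debris and degrade matrix while fibrosis regresses, whereas in blood a separate Ly6Clo monocyte patrols the vessel wall. Other leukocytes of the liver, among them NK cells, eosinophils and some dendritic cells, can also carry CD11b, and eosinophils F4/80, without high Ly6C.

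Reads counted on genes ranged from 10597576 to 13646656 (median 12414720) in Ly6Chi libraries and from 5693049 to 14422347 (median 13555704) in Ly6Clo libraries. The lowest Ly6Clo total belonged to mouse 13, whose Ly6Clo library held 5343 genes above 0, the fewest of the 10, while the others held 9017 to 15723. The number of genes above 0 was 10793 ± 2267 in Ly6Chi and 10952 ± 3954 in Ly6Clo libraries (SD, n = 5 each), higher in Ly6Clo in 4 of 5 mice, and this did not pass a two-sided exact sign-flip permutation test (p = 0.9375, where 5 pairs allow no p below 0.0625). Without mouse 13, the Ly6Clo libraries held more genes (Ly6Chi minus Ly6Clo -1300.5 on average, exact p = 0.125, the smallest that 4 pairs allow). In the Ly6Clo library of mouse 13, 9653 of the 14690 genes tested were listed at 0, among them Sdha and Tbp, 2 genes that every cell uses and that were chosen after their values were seen. A value of 0 allows up to 3 reads, a limit that covers counting error only, since reads carry no molecular identifiers. Levels are given as normalized counts, that is, reads divided by a size factor of the library but not by gene length, and so compare a gene between libraries, not genes with each other.

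The markers of the gate were read before any other gene. Ly6c2, the gene of a Ly6C antigen, was at 7607, 7218, 5908, 4930 and 9047 normalized counts in Ly6Chi libraries of mice 11 to 15, and at 753, 670, 858, 284 and 622 in the Ly6Clo libraries of the same mice. The log2 difference, Ly6Chi minus Ly6Clo on log2(normalized count + 1), was 3.50 (SE 0.27, limma adjusted p = 0.00278), and the subsets did not overlap, as the gate requires. Adgre1, which encodes F4/80, lay between 1657 and 3526 in Ly6Chi and between 1058 and 4154 in Ly6Clo libraries (difference 0.48, adjusted p = 0.60). Cd68, a macrophage lysosomal protein chosen after its values were seen, was at similar levels in all 10 libraries, from 10689 to 16854. Both subsets therefore held macrophage transcripts. Itgam, which encodes CD11b, was at 658 to 2797 in Ly6Chi libraries and at 1206 to 2431 in 4 Ly6Clo libraries but at 2.09 in mouse 13, and its difference of 1.52 (adjusted p = 0.66) became -0.04 without that mouse. Of the lineages gated out, Cd3e was at 0 in all 10 libraries, Cd3d was at no more than 2.48, Cd3g was at 125 in the Ly6Clo library of mouse 14 and at 0 in the others, and Ly6g reached 192 in the Ly6Clo library of mouse 14 and no more than 2.09 in the others. Itgax, which encodes CD11c, the antigen selected against in both gates, was at 0 in all 5 Ly6Chi libraries and at 1952, 0, 810, 1407 and 1609 in Ly6Clo libraries (adjusted p = 0.16). Its Ly6Clo mean was at least 402-fold higher, taking 3 reads per library for the 0 values, and only the Ly6Clo library of mouse 12 lacked it.

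Of the 14690 genes tested, 158 differed between the subsets (limma within mice, adjusted p under 0.05), 1.08% of those tested. There were 37 genes higher in Ly6Chi (0.252%) and 121 higher in Ly6Clo libraries (0.824%), and 1353 genes had an unadjusted p under 0.05. Each of the 158 had the same sign in 5 of 5 mice, and 144 of them had no overlap between the 5 Ly6Chi and the 5 Ly6Clo values, where 3.43% of all genes tested had none. Called log2 differences had a median of 1.39 on the Ly6Chi side, from 0.68 to 9.68, and on the Ly6Clo side a median size of 6.88, from 0.54 to 13.57. Absence from the opposite subset was also unlike in both directions. Of the 121 genes higher in Ly6Clo, 34 were at 0 in all 5 Ly6Chi libraries and 58 were above 0 in every library of both subsets, whereas 33 of the 37 genes higher in Ly6Chi were above 0 in every library and 2 were at 0 in all Ly6Clo libraries. A gene whose mean reached 10 in only 1 subset, the level that let it into the test, could differ in only 1 direction. This held for 2630 genes of the Ly6Clo side, 50 of them called, and for 1500 of the Ly6Chi side, 4 of them called. Signs and medians of gene lists are therefore given over members with a mean of at least 10 in both subsets, and the median over all such genes was 0.22. For a gene at 0 in a subset the fitted difference depends on the pseudocount of 1 and is no bound, and a lower bound of the fold is given instead. In these bulk libraries, fewer cells of a type and less RNA per cell cannot be told apart.

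**Figure D1:**
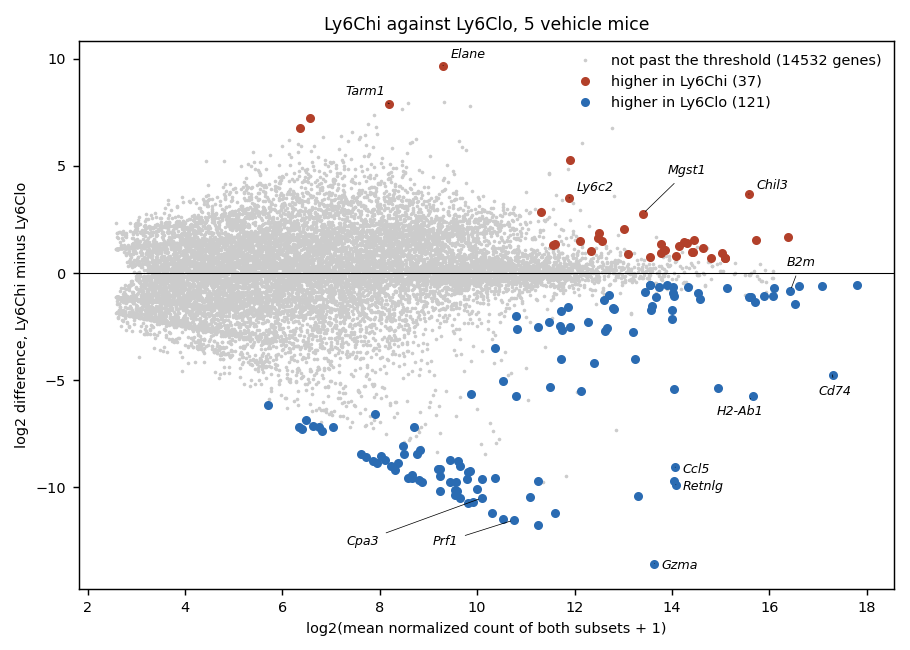
Log2 difference, Ly6Chi minus Ly6Clo, of each of the 14690 genes tested in 5 vehicle mice (y axis) against its mean level over both subsets as log2(normalized count + 1) (x axis). Red points mark the 37 genes higher in Ly6Chi and blue points the 121 higher in Ly6Clo libraries, and the blue points run from small differences at high level to differences beyond -5, among them those of Gzma, Prf1 and Cpa3.

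Genes of Ly6Chi monocytes were in part higher in Ly6Chi libraries. Of 12 genes tested, 5 passed, among them Plac8, Chil3 and Mgst1, and 7 did not. Ly6c2 is 1 of the 5, and its difference was set by the gate. Without Ly6c2, 4 of 11 genes passed and the median difference was 1.74, with 1 gene past the filter on low values in Ly6Chi only. Chil3, a chitinase-like lectin secreted by inflammatory monocytes, was at 146668, 87738, 83032, 61482 and 70079 in Ly6Chi libraries and at 13188, 9459, 5687, 1847 and 10059.9 in Ly6Clo libraries, a difference of 3.68 (SE 0.30, adjusted p = 0.00361). The lowest Ly6Chi value of Chil3 was above every Ly6Clo value, and both subsets expressed the gene. Mgst1, a microsomal glutathione transferase, was at 19435, 21078, 19653, 18165 and 15096 in Ly6Chi and at 1570, 3671, 2559, 4364 and 2447 in Ly6Clo libraries (difference 2.75, adjusted p = 0.00361). Plac8 differed less, by 1.17 (adjusted p = 0.00278), with means of 35303 ± 5839 and 15720.4 ± 2719.5 (SD, n = 5).

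The receptor that guides these monocytes did not pass. Ccr2 was at 20490, 15865, 22961, 17179 and 20472 in Ly6Chi and at 11640, 8710, 2651, 5225 and 5462 in Ly6Clo libraries, a difference of 1.68 (SE 0.33, adjusted p = 0.0998). The subsets did not overlap, and in every mouse the Ly6Chi value was higher. F13a1, the transglutaminase of factor XIII, was at 9632 to 18118 in Ly6Chi libraries and at 849, 665, 0, 154 and 333 in Ly6Clo libraries (6.75, adjusted p = 0.0929). It passed without mouse 13 (5.12, adjusted p = 0.0084), the mouse whose Ly6Clo library listed it at 0. Hp, which encodes haptoglobin, and Fn1, which encodes fibronectin, had positive differences of 1.22 (adjusted p = 0.0689) and 2.18 (adjusted p = 0.33). Clec4e, a lectin that senses mycobacterial glycolipid, had a difference of 0.04. Among 12 homing receptor genes with a mean of at least 10 in both subsets, which include Ccr2 and Cx3cr1, the median difference was -0.18.

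**Figure D2:**
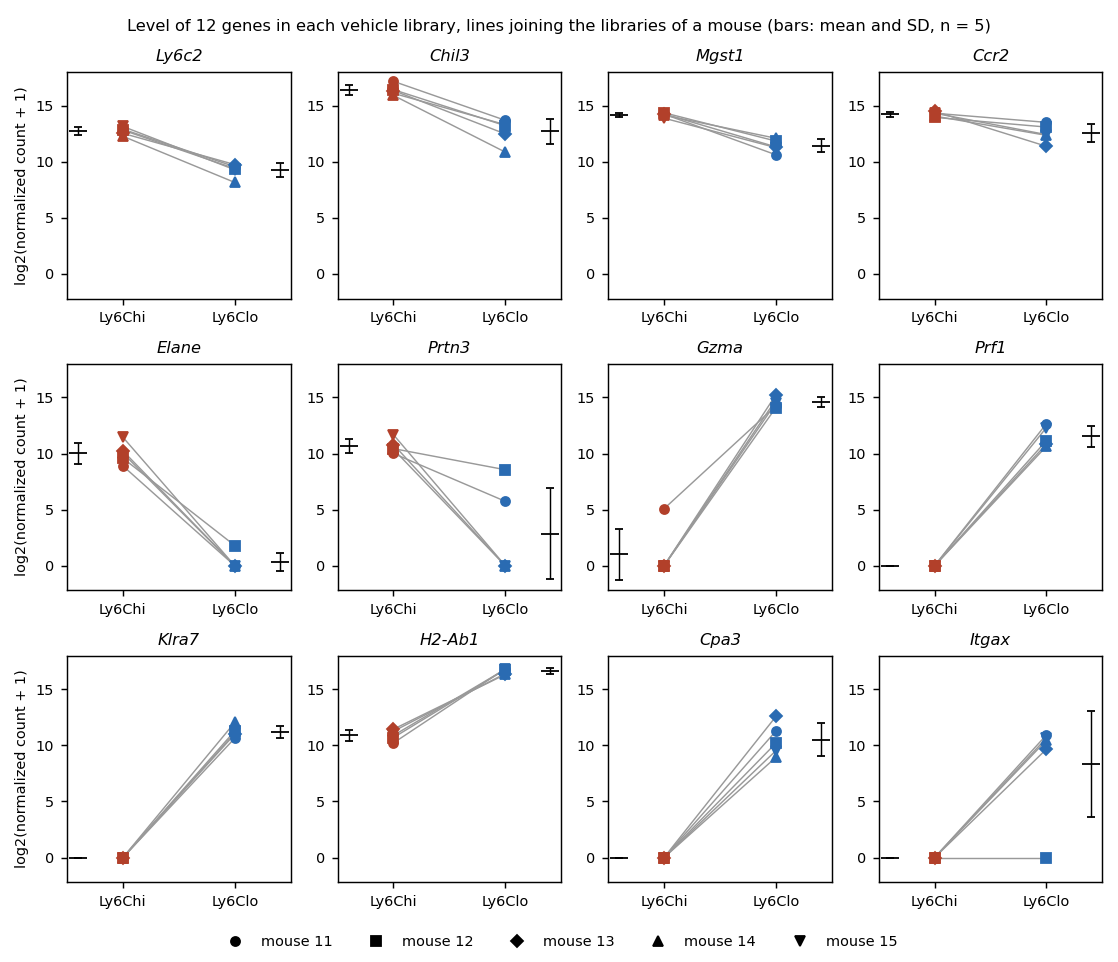
Level of 12 genes as log2(normalized count + 1) (y axis) in the Ly6Chi (red) and Ly6Clo (blue) library of each vehicle mouse, with lines joining the libraries of a mouse and bars for mean and SD (n = 5). Ly6c2, Chil3 and Mgst1 are lower in Ly6Clo but still expressed, Prf1, Klra7 and Cpa3 are at 0 in all 5 Ly6Chi libraries, and Itgax is at 0 in the Ly6Clo library of mouse 12.

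Among called genes with a symbol, those higher in Ly6Chi with the largest differences were Elane, Tarm1, Mfsd7a, Esco2, Chil3, Ly6c2, Ethe1, Mgst1, Gpr141, Emb, the gene pair Lyz2 and Lyz1, and Idh1. Gpr141, an orphan receptor of myeloid cells, was at 11550.2, 12853, 14729, 12115 and 15672 in Ly6Chi and at 2959.6, 3519, 3293, 2691 and 3391 in Ly6Clo libraries, a difference of 2.07 (SE 0.12, adjusted p = 0.00179). It had the smallest SE among these 12 genes. Ethe1, a mitochondrial sulfur dioxygenase, differed by 2.83 (adjusted p = 0.00899), and Idh1, the cytosolic isocitrate dehydrogenase, by 1.64 (adjusted p = 0.0169). The lysozyme genes Lyz2 and Lyz1, which share a row of the table and near-identical sequence, so that their reads cannot be assigned to either, were at 114706 to 142984 in Ly6Chi and at 27156 to 58808 in Ly6Clo libraries (1.69, adjusted p = 0.00779). Tarm1, an activating receptor of myeloid cells, Mfsd7a and Esco2, an acetyltransferase that acts on cohesin in S phase, were low or absent in Ly6Clo libraries. Esco2 was at 26.6, 348, 63.5, 91.8 and 283 in Ly6Chi libraries and at 0 in all Ly6Clo libraries, at least 44.6-fold higher, and Mfsd7a at 60 to 335 and at 0, at least 51.2-fold higher. These 3 low genes did not pass without mouse 13 (adjusted p = 0.0937 for Esco2, 0.0557 for Mfsd7a and 0.072 for Tarm1).

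Elane, which encodes neutrophil elastase, a serine protease made by granulocyte and monocyte progenitors and stored in azurophil granules, had the largest difference among the genes called higher in Ly6Chi. It was at 475, 766, 1204, 1045 and 2794 in Ly6Chi libraries and at 0, 2.48, 0, 0 and 0 in Ly6Clo libraries (9.68, SE 1.00, adjusted p = 0.00803). The Ly6Clo value of 2.48 stands for 2 reads, which gives a ratio of 2534 with a 95% counting interval of 701 to 20924. Prtn3, which encodes proteinase 3 and lies next to Elane on chromosome 10, was at 1027, 1385, 1779.8, 1324 and 3267 in Ly6Chi libraries and at 52.4, 375, 0, 0 and 0 in Ly6Clo libraries (7.80, adjusted p = 0.13). Fcnb, a ficolin of the same granules, was at 265 to 1310.5 and at 0 in 4 of 5 Ly6Clo libraries (7.92, adjusted p = 0.10). Mpo, myeloperoxidase, was at 293, 488, 287, 0 and 808 in Ly6Chi libraries and at 12.4 in the Ly6Clo library of mouse 12 and 0 in the others (6.24, adjusted p = 0.24). For Elane, Prtn3, Fcnb and Mpo alike, the Ly6Clo library of mouse 12 was the highest of its subset. Of the 10 azurophil granule and progenitor genes tested, 1 passed. Of these genes, 4 entered the test through Ly6Chi only and 1 through Ly6Clo only, and of the other 5, 3 had a positive difference, with a median of 1.49. The summed level of the list ran from 2271 to 8805 in Ly6Chi and from 709 to 1332 in Ly6Clo libraries. Kit and Cd34, surface markers of progenitors in this list, and Cebpe had the opposite sign and did not pass (-3.57, -4.72 and -1.73, adjusted p = 0.526, 0.451 and 0.526). Kit was the gene that entered through Ly6Clo only, Cd34 was at 0 to 555 in Ly6Clo against 0 to 167 in Ly6Chi libraries, and Cebpe was higher in Ly6Clo in 5 of 5 mice. Gfi1 was at 0 in all 10 libraries.

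The sequences before the start sites of Elane and Prtn3 are shown because these neighbours had large positive differences, of which that of Elane passed, and hold the same string. They are the 250 bases before the start (RefSeq, GRCm38.p6, the plus strand, chr10:79886062-79886311 and chr10:79879417-79879666), with capitals on GAGGAAGT, a sequence of the kind that PU.1 and other ETS factors bind.
Elane: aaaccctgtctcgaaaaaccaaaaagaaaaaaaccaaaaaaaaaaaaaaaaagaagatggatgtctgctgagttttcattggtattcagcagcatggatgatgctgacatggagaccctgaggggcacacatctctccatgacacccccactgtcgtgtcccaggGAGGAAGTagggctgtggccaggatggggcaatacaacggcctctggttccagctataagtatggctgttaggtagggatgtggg
Prtn3: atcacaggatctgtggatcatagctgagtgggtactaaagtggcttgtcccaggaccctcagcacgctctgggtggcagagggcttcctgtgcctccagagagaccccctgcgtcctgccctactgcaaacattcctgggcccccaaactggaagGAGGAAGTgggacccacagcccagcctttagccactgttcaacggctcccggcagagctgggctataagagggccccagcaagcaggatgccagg
The string begins 85 bases before the start of Elane and 95 bases before that of Prtn3. Searched on both strands, it was in 3 of 9 promoters of the azurophil list that could be matched (Elane, Mpo and Prtn3) and in 2.44% of all 32851 RefSeq promoters of this length. It was chosen after the promoters had been read, and a match describes the letters only.

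Genes of the mitotic cell cycle and of the type I interferon response had mostly positive differences, and none of them passed the test. In the mitotic list, 0 of 18 genes passed in either direction, and 13 of the 14 with a mean of at least 10 in both subsets had a positive difference (median 2.85). Its summed level was 4863 to 11763 in Ly6Chi and 1912 to 5589 in Ly6Clo libraries. Rrm2, the ribonucleotide reductase subunit that supplies DNA precursors, was at 650, 2755, 1459, 441 and 2792 in Ly6Chi and at 886, 2.48, 1912, 613 and 113 in Ly6Clo libraries, so that the subsets overlapped. In the interferon list, 11 of 13 genes tested had a positive difference (median 0.82), and 0 passed.

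MHC class II genes were in part higher in Ly6Clo libraries. These molecules present peptides to CD4 T cells, and Cd74 encodes the invariant chain that escorts them. All 8 genes of the list with a mean of at least 10 in both subsets had a negative difference, with a median of -4.67, and 4 of the 10 genes tested passed: H2-Ab1, H2-Aa, H2-Eb1 and Cd74. H2-Ab1, the beta chain of I-A, was at 1187, 1653, 2779, 2449 and 1885 in Ly6Chi libraries and at 116774, 110582, 81787, 86359 and 112713 in Ly6Clo libraries. Its difference was -5.72 (SE 0.25, adjusted p = 0.0014, the smallest among the genes tested), a ratio of means of 51.1. The alpha chain gene H2-Aa was at 950.5, 1137, 2090.4, 1556 and 1651 in Ly6Chi and at 38408 to 102768 in Ly6Clo libraries (-5.35, adjusted p = 0.0019). H2-Eb1, the beta chain of I-E, was at 550, 774, 1133, 722 and 558 against 19238 to 58007 (-5.42, adjusted p = 0.0019). Cd74 was at 8086 to 13647 in Ly6Chi and at 219688 to 445874 in Ly6Clo libraries (-4.75, adjusted p = 0.0019). For these 4 genes mouse 13 had the lowest Ly6Clo value and, except for Cd74, the highest Ly6Chi value, and all 4 passed without it. The genes of H2-DM and H2-O, which edit the peptide load, and Ciita, which encodes the master regulator of class II transcription, did not pass. On chromosome 17, H2-Ob, H2-Ab1, H2-Aa and H2-Eb1 lie between 34238905 and 34316674 (mm10), and 3 of these 4 neighbours passed.

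The bases before H2-Aa (minus strand, chr17:34287824-34288073) and H2-Eb1 (plus strand, chr17:34305617-34305866) are shown for the chains of this cluster (RefSeq, GRCm38.p6, 250 bases, 5′ to 3′). Capitals mark CTGATTGG, the Y box of class II promoters, to which NF-Y binds.
H2-Aa: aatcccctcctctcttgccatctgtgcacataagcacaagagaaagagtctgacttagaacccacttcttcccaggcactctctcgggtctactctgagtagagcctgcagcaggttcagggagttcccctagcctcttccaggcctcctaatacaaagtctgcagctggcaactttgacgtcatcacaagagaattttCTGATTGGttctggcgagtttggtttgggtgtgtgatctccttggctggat
H2-Eb1: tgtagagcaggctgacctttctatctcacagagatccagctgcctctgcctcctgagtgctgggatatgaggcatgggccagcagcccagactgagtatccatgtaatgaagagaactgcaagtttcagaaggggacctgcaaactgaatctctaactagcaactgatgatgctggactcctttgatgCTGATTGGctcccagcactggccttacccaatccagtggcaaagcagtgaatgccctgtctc
The box begins 51 bases before the start of H2-Aa and 62 bases before that of H2-Eb1. It was in 3 of 7 matched promoters of the class II list (H2-Aa, H2-Eb1 and H2-Oa) and in 3.83% of all promoters, on either strand, and it too was chosen after the promoters had been read.

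In class I presentation, the arm to which MR1 belongs, 2 of 12 genes passed. B2m, the light chain shared by class I molecules and MR1, was at 66669, 59476, 53506, 65233 and 70193 in Ly6Chi and at 108173, 106813, 102819.97, 126962 and 121470.5 in Ly6Clo libraries, a difference of -0.85 (SE 0.04, adjusted p = 0.00157). Its subsets did not overlap, at a ratio of means of 1.80. H2-K1, a classical class I heavy chain, differed by -1.26 (adjusted p = 0.0168). It passed in 1 of 5 fits with a mouse left out, and did not pass by edgeR (adjusted p = 0.0528). The other 10 genes of the list did not pass, and its median of 0.55 turned to -0.34 without mouse 13. Mr1 itself, chosen after its values were seen, was at 7.97, 121, 120, 0 and 0 in Ly6Chi and at 35.9, 0, 0, 0 and 117 in Ly6Clo libraries, and no difference was detectable at this depth (adjusted p = 0.87).

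Genes of patrolling monocytes were in part higher in Ly6Clo libraries. Of 14 genes tested, 5 passed (Eno3, Adgre4, Pglyrp1, Gngt2 and Treml4), 0 were called higher in Ly6Chi, and 10 of the 13 with a mean of at least 10 in both subsets had a negative difference (median -2.28). Eno3, an enolase of glycolysis, was at 114, 99.5, 206, 732 and 114 in Ly6Chi libraries and at 7435, 5629.7, 7361, 11016 and 12491 in Ly6Clo libraries (-5.53, SE 0.45, adjusted p = 0.00368). Adgre4, an adhesion receptor of the F4/80 family, was at 840.3 to 2606 against 5134 to 10844 (-2.28, adjusted p = 0.00758). Pglyrp1, a protein that binds bacterial peptidoglycan, was at 1281 to 2632 against 6643 to 17844 (-2.55, adjusted p = 0.0161). None of these 3 genes overlapped between the subsets. Gngt2 and Treml4 passed with all mice (-1.73, adjusted p = 0.0265, and -2.46, adjusted p = 0.035) but not without mouse 13 (adjusted p = 0.0776 and 0.0583). Cd36, a scavenger receptor for oxidized lipid, had a difference of -5.93 that did not pass (adjusted p = 0.16) but did so without mouse 13 (-4.32, adjusted p = 0.0171). Cx3cr1 and Nr4a1, which are often used for this monocyte, did not pass. Cx3cr1, the fractalkine receptor, was at 1108 to 3157 in Ly6Chi and at 1111 to 4393 in Ly6Clo libraries (-0.08, adjusted p = 0.93). Nr4a1, the nuclear receptor that this lineage needs, was at 1666 to 15444 against 554 to 10693 (1.20, adjusted p = 0.46).

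Genes of NK cells and cytotoxic effectors were in part higher in Ly6Clo libraries. Of 17 genes of the effector list that were tested, 9 passed and 8 did not. Of the 17, 15 entered the test through Ly6Clo only, so that their sign was fixed, and the levels in each library are given for that reason. Gzma, a granule protease of cytotoxic lymphocytes, was at 32.8, 0, 0, 0 and 0 in Ly6Chi libraries and at 19483, 17527, 38619, 28451 and 23524 in Ly6Clo libraries. The difference of -13.57 (SE 1.01, adjusted p = 0.00278) was the largest in size among all genes called, and the ratio of means was 3896. Prf1, perforin, the pore former of these granules, was at 0 in all Ly6Chi libraries and at 6480.1, 2275, 1851, 1606 and 5087 in Ly6Clo libraries, at least 1203-fold higher (adjusted p = 0.00278). Gzmb was at 2502, 1272, 1313, 878 and 1530.3 in Ly6Clo libraries, and 2 reads were found in 1 Ly6Chi library, a ratio of 3502 with a 95% counting interval of 969 to 28918 (adjusted p = 0.00505). Ncr1, the receptor NKp46 that marks NK cells and related innate lymphocytes, was at 2365, 963, 198, 2357 and 1817 in Ly6Clo libraries and at 0 in all Ly6Chi libraries, at least 535-fold higher (adjusted p = 0.00758). Nkg7, a granule membrane protein, and Ccl5, a chemokine stored in cytotoxic granules, were at 15923 to 24455 and 25215 to 40388 in Ly6Clo libraries, and reached 409 and 458 in the Ly6Chi library of mouse 14. Ccl5 did not pass without mouse 13 (adjusted p = 0.0591). The lineage factors Eomes and Tbx21 were at 0 in Ly6Chi libraries, averaged 69.7 and 18.9 in Ly6Clo libraries and did not pass. By edgeR on the recovered reads, 3 genes of this list passed (Prf1, Gzma and Gzmb), and of the 34 called genes at 0 in all Ly6Chi libraries 1 passed, Prf1 (adjusted p = 0.0455).

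Killer lectin-like receptors, which NK cells use to read class I molecules and stress ligands, were also in part higher in Ly6Clo libraries. Of 19 tested, 11 passed, of which edgeR called 2 (Klri2 and Klrb1c), and 8 did not. Of the 19, 14 entered the test through Ly6Clo only, and of the other 5, 4 had a negative difference and 1 passed. That gene, Klrk1, which encodes NKG2D, passed with all mice (adjusted p = 0.0245) but not without mouse 13 (adjusted p = 0.0593) or by edgeR (adjusted p = 0.109). Klri2 was at 2869, 3417, 11199, 3192 and 3676 in Ly6Clo libraries and at 0 in Ly6Chi libraries except for 2 reads in mouse 13 (adjusted p = 0.0019). Klra7, a receptor of the Ly49 group, was at 1597, 2498, 2047, 4225 and 2206 against 0 in all Ly6Chi libraries, at least 874-fold higher (adjusted p = 0.00278). Klrg1, an inhibitory receptor of mature NK and T cells, was at 1290.2 to 3233 against 0, at least 622-fold higher (adjusted p = 0.00368). Klrb1c, the gene of the NK1.1 antigen, was at 3438 to 8294 in Ly6Clo libraries and at 48.3 in the Ly6Chi library of mouse 14 (adjusted p = 0.00878). Klrd1, the partner of the NKG2 receptors, was at 1910.3 to 4629 in Ly6Clo and at up to 232 in Ly6Chi libraries and did not pass (adjusted p = 0.0912). The Ly49 genes are near-identical copies, so that reads may be split among them, and single members are less certain than the family. In the natural killer gene complex on chromosome 6, between 128609227 and 131247362 (mm10), 39 genes with a symbol were tested, 20 of them through Ly6Clo only, and 12 were higher in Ly6Clo and 0 in Ly6Chi. On the same chromosome, the GTPases of lymphocyte survival lie in the Gimap cluster (48647232 to 48770851), where 8 genes were tested, 7 of them through Ly6Clo only, and 4 passed, led by Gimap6, at 1907 to 3608 in Ly6Clo libraries and 0 in all Ly6Chi libraries, at least 1024-fold higher (adjusted p = 0.00248).

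The bases before Gzma (minus strand, chr13:113100982-113101231) and Gzmb (minus strand, chr14:56262335-56262584) are shown because these proteases lie on different chromosomes and differed alike (RefSeq, GRCm38.p6, 250 bases, 5′ to 3′). Capitals mark TGTGGTT or its reverse complement AACCACA, the string that RUNX factors bind.
Gzma: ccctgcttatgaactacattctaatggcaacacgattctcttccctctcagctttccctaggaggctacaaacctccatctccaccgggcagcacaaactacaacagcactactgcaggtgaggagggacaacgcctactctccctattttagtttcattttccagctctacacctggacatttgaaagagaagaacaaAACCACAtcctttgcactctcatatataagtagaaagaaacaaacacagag
Gzmb: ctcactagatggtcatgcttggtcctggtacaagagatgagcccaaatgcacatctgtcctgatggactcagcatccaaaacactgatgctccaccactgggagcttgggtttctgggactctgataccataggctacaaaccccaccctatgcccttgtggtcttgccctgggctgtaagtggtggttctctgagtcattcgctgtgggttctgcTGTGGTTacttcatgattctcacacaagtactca
It begins 51 bases before the start of Gzma and 34 bases before that of Gzmb. The string was in 5 of 16 matched promoters of the NK and cytotoxic list (Ncr1, Gzma, Gzmb, Gzmc and Xcl1) and in 4.4% of all promoters, and it was chosen after the promoters had been read. Gzmc, which holds it, was at 0 in all 10 libraries and was not tested.

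Markers of some other leukocytes moved with the Ly6Clo gate, and their part in the differences above was not tested. Between the gates, the summed level of the NK and cytotoxic list ran from 55.4 to 867 in Ly6Chi libraries and from 65090 to 110446 in Ly6Clo libraries, and that of the killer lectin list from 590 to 948 and from 21463 to 41666. For eosinophils, basophils and mast cells the sum was 0 in all 5 Ly6Chi libraries and 6117 to 18568 in Ly6Clo libraries, with 3 of 9 tested genes past the threshold, all 9 tested through Ly6Clo only, and Epx, the eosinophil peroxidase, at 0 in all 10. Cpa3, a carboxypeptidase of mast cells and basophils, was at 2467, 1172, 6084, 488 and 735 in Ly6Clo libraries, at least 761-fold higher than in Ly6Chi (adjusted p = 0.00614). Mcpt8, a protease of basophils, was at 225 to 7031 (adjusted p = 0.00899), and Fcer1a, a chain of their IgE receptor, at 533 to 945 (adjusted p = 0.00628). Ccr3, the eotaxin receptor of eosinophils, was at 11147, 9962, 0, 3987 and 1130.5 in Ly6Clo libraries and at 0 in all Ly6Chi libraries. It passed only without mouse 13 (adjusted p = 0.145 with it and 0.00891 without it), and so did Prg2, the eosinophil major basic protein (adjusted p = 0.202 and 0.0341).

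Conventional dendritic cell genes had mostly negative differences that did not pass, and neutrophil genes had both signs. The dendritic cell genes summed to 761 to 1381 in Ly6Chi and to 14392 to 26561 in Ly6Clo libraries, with 1 of 11 tested genes past the threshold and negative differences for all 7 with a mean of at least 10 in both subsets. The gene past the threshold was Ccr7, the receptor with which dendritic cells reach lymph nodes, at 6839.7, 2425, 1407, 733 and 1709 in Ly6Clo libraries and at 35.4, 2.14, 0, 0 and 0 in Ly6Chi libraries (-9.57, adjusted p = 0.00522). Of the 11, 3 entered the test through Ly6Clo only, Ccr7 among them, so that its sign was fixed, and 0 of the 7 passed. Cd209a, a lectin of monocyte-derived dendritic cells, was at 8819.8 to 19143 against 0 to 535 (-7.33, adjusted p = 0.0951). Among neutrophil genes, Retnlg, a resistin-like protein, was at 53537, 49959.7, 35768, 24317 and 9064 in Ly6Clo and at 30.1, 0, 77.7, 504 and 21.8 in Ly6Chi libraries (-9.88, adjusted p = 0.0199), and passed no longer without mouse 13 (adjusted p = 0.0579). Cxcr2, the receptor for neutrophil chemokines, was at 108 to 1448 against 0 in all Ly6Chi libraries, at least 181-fold higher (adjusted p = 0.0156). Mmp8, neutrophil collagenase, had the opposite sign, at 6345 to 11429.9 in Ly6Chi and 0 to 1171 in Ly6Clo libraries (6.08, adjusted p = 0.19), and S100a8 overlapped between the subsets. Granule genes of neutrophils stood apart in the Ly6Clo libraries of mice 12 and 14. Camp, the cathelicidin of neutrophil granules, was at 0, 1768, 0, 3851 and 22.7 in Ly6Clo libraries, and Ngp, a neutrophil granule protein, at 1.84, 2033, 0, 1632 and 111, while both were at 0 in all Ly6Chi libraries (adjusted p = 0.527 and 0.419). Ltf, lactoferrin, was at 996 and 227 in those 2 Ly6Clo libraries and at 0 in the other 3, and S100a9 was at 1679 and 2957 there and at 0 to 326 in the other 3. The part of these libraries in the differences of Retnlg and Cxcr2 was not tested. In all, 2 of 12 neutrophil genes passed, 5 of the 12 entered the test through Ly6Clo only, 6 of the other 7 had a positive difference, and the sum was 13404 to 16986 in Ly6Chi and 10919 to 63210.1 in Ly6Clo libraries.

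T cell genes of the list, which goes by symbol, were low. Their sum was 0 to 76.1 in Ly6Chi and 25.0 to 1941 in Ly6Clo libraries, and Cd3e, Cd4, Cd5 and Cd8b1 were at 0 in all 10 libraries. All 6 tested genes entered the test through Ly6Clo only, and 0 passed by limma and 1 by edgeR. Outside the list, Lck, a kinase of lymphocytes, passed, at 670 to 3209 in Ly6Clo and up to 23.9 in Ly6Chi libraries (adjusted p = 0.00803). Thy1, carried by T cells and by other lymphocytes, was at 269, 38.4, 20.9, 17.8 and 170.1 in Ly6Clo libraries and at 0 in all Ly6Chi libraries (adjusted p = 0.0891), and Cd8a was at 30.1 and 25.8 in the Ly6Chi and Ly6Clo libraries of mouse 11 and at 0 in the others. Cd247, the zeta chain that NK and T cell receptors share, was at 892, 357, 4.17, 773 and 1569 in Ly6Clo libraries and at 1.77, 0, 0, 0 and 0 in Ly6Chi libraries, and passed without mouse 13 (adjusted p = 0.0789 with it and 0.0216 without it). B and plasma cell genes summed to 116 to 1212 and 483 to 3755, Kupffer cell genes to 817 to 2999 and 2588 to 8191, and hepatocyte genes to 4093 to 11616 and 7888 to 13231, with 0 genes past the threshold in each of these lists. Plasmacytoid dendritic cell, liver endothelial, stellate and platelet or erythroid lists also had 0 genes past the threshold. The platelet and erythroid sum stood apart in the Ly6Clo library of mouse 12, at 31430.4, against 1217 to 4690 in the other Ly6Clo and 892 to 2118 in Ly6Chi libraries. Timd4 and Clec4f, defining genes of Kupffer cells, averaged 44.5 normalized counts or less in both subsets. The lists go by symbol, and Ighm could not be matched. Called genes without a symbol are thus outside them, such as those at chr6:40891227-41548356, chr14:53560127-54147072 and chr6:70215400-70740554. They were at 343 to 1653, 392 to 1024 and 78.2 to 2490 in Ly6Clo libraries (limma adjusted p = 0.00779, 0.0101 and 0.0149). In Ly6Chi libraries they were at 0, except for 3.54 in mouse 11 for the chr14 gene. Whether they hold antigen receptor genes was not tested.

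**Figure D3:**
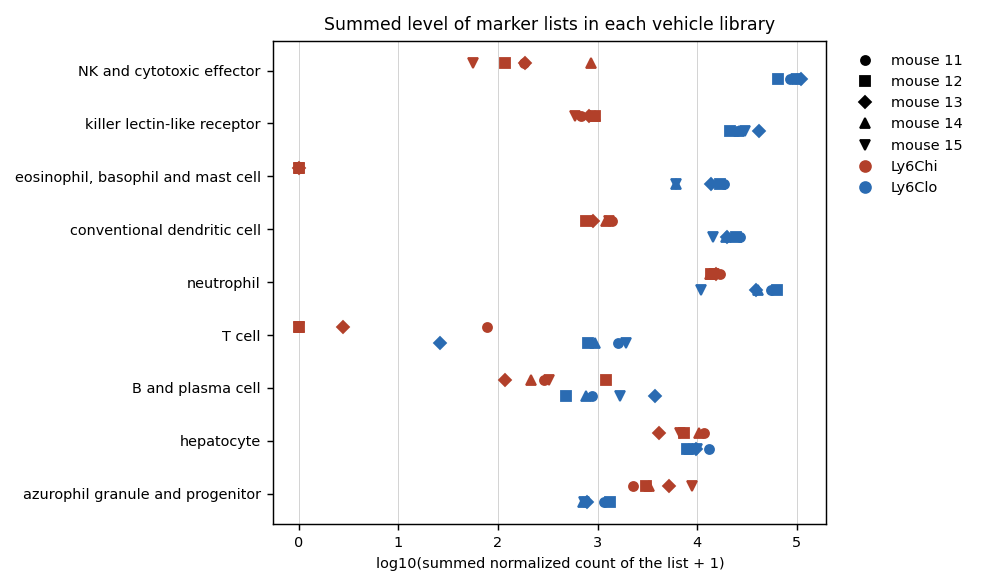
Summed level of 9 marker lists as log10(summed normalized count + 1) (x axis) in each vehicle library, with red for Ly6Chi, blue for Ly6Clo and a marker shape for each mouse. The NK, killer lectin, eosinophil with basophil and mast cell, and dendritic cell lists are separated between the subsets, whereas the hepatocyte and B cell lists overlap.

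Among functions tied to scarring and its resolution, few genes passed. Of 10 scar-associated macrophage genes, Cd9, a tetraspanin, was higher in Ly6Clo, Lgals3, which encodes galectin-3, was higher in Ly6Chi, and 8 did not pass. Cd9 was at 1266, 620, 1203, 1417 and 1250.2 in Ly6Chi libraries and at 16396, 18585, 18203, 23218 and 15304 in Ly6Clo libraries (-4.03, SE 0.22, adjusted p = 0.00179), a ratio of means of 15.9 with no overlap. Lgals3 was at 31579, 22975, 21224, 20987 and 28487 in Ly6Chi and at 18052, 13067, 6864, 6531 and 10252 in Ly6Clo libraries (1.28, adjusted p = 0.0168), and did not pass without mouse 13 (adjusted p = 0.0529). Spp1, osteopontin, ranged from 480.5 to 37469 in Ly6Chi and from 3875 to 18114 in Ly6Clo libraries, and the highest value was that of the Ly6Chi library of mouse 15. Metalloproteinases and their inhibitors, complement genes, scavenger receptors, Fc gamma receptors and growth factors had 0 genes past the threshold in either direction, with medians, over members with a mean of at least 10 in both subsets, of -2.69, -0.99, -0.40, -0.39 and -2.83. These medians rest on 5, 9, 9, 8 and 3 members. Over all 13 scavenger receptors tested the median was -0.57, and without mouse 13 it was -1.67 and 1 gene of that list passed, Cd36 (-4.32, adjusted p = 0.0171).

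Chemokine genes split by member. Of the 9 cytokine genes with a mean of at least 10 in both subsets, 8 had a negative difference (median -2.08). Ccl4, a chemokine that attracts lymphocytes and monocytes, was at 2897, 1894, 869, 1624 and 1026 in Ly6Chi libraries and at 21635, 9681, 6363, 6458 and 10535 in Ly6Clo libraries (-2.69, SE 0.23, adjusted p = 0.00436). Ccl6 was high in both, at 34395 to 43340 and 46468 to 121339 (-1.07, adjusted p = 0.0303, and 0.0937 without mouse 13). Ccl2, the CCR2 ligand that recruits monocytes, had the opposite sign, at 3554 to 7306 in Ly6Chi and at 1277, 1269, 0, 559 and 321 in Ly6Clo libraries, and passed only without mouse 13 (2.74, adjusted p = 0.0159, against 4.60, adjusted p = 0.40). The other 11 chemokine genes did not pass with all 5 mice. Il10, which encodes an anti-inflammatory cytokine, was at 861, 372, 1213, 623 and 405 in Ly6Clo libraries and at 72.6, 0, 0, 0 and 0 in Ly6Chi libraries (-8.06, adjusted p = 0.0398, and 0.0816 without mouse 13). Il1b and Tnf did not pass, and Nos2 was at 0 in all 10 libraries and was not tested. Of the transcription factors, Id2, an inhibitor of helix-loop-helix factors, was higher in Ly6Clo (-1.58, adjusted p = 0.0251), and 14 did not pass. The immediate early genes, which respond to cell handling as well as to stimulation, had 0 of 12 past the threshold and a median of 0.14 over the 11 with a mean of at least 10 in both subsets. Over all 12 the median was -0.05, and -0.62 without mouse 13.

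**Figure D4:**
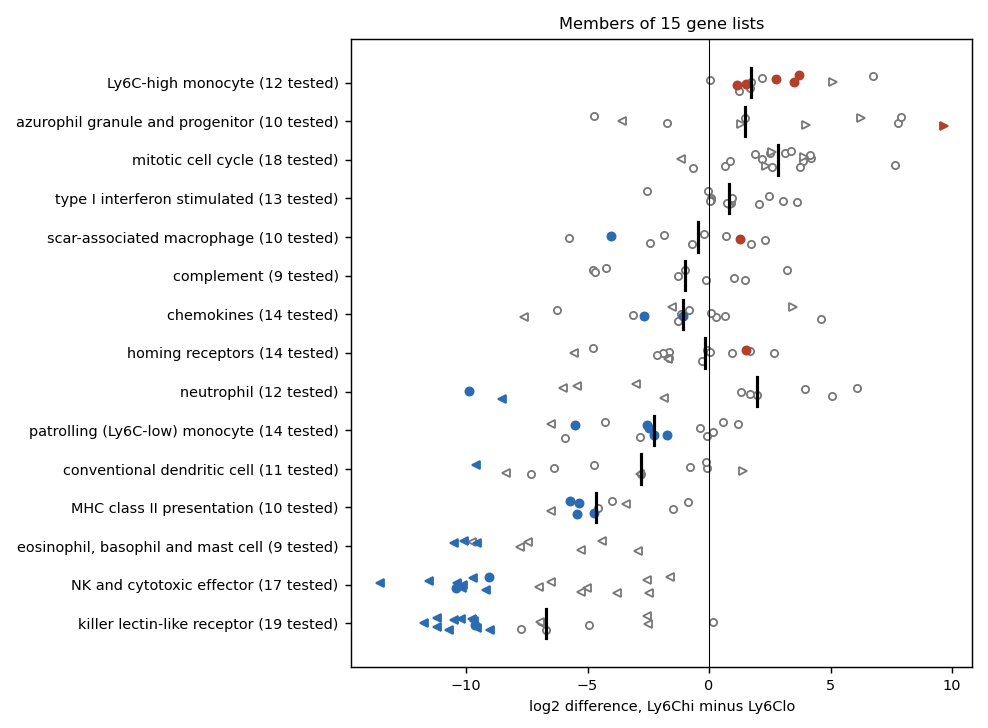
Log2 difference, Ly6Chi minus Ly6Clo (x axis), of each tested member of 15 gene lists (y axis) in 5 vehicle mice, with filled symbols for adjusted p under 0.05. Circles are members with a mean of at least 10 normalized counts in both subsets, triangles members that reached it in 1 subset only and so could lie only on that side, and a bar marks the median of the circles where a list has at least 3. In the NK list 15 of 17 symbols and in the eosinophil, basophil and mast cell list all 9 are triangles, and the bar of the class II list lies at -4.67.

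Among the 12 called genes with the largest differences on the Ly6Clo side, Gzma, Klri2, Prf1, Gimap6, Klra7, Klrb1c, Klrg1, Klra9 and Nkg7 are known from lymphocytes, and the others were Retnla, Cpa3 and Cd300e. Retnla, a resistin-like protein of alternatively activated macrophages that is also made by other cells, was at 4142, 1678, 914, 1029.5 and 1869 in Ly6Clo libraries and at 0 in all Ly6Chi libraries, at least 670-fold higher (adjusted p = 0.00436). Cd300e, an activating receptor of Ly6Clo monocytes, was at 2307, 2052, 6946, 5037 and 5301 in Ly6Clo libraries, and at 155 in the Ly6Chi library of mouse 14 and 0 in the other Ly6Chi libraries (-10.47, adjusted p = 0.0156). Of the 158 genes, 28 had no symbol. Among these, 12 overlapped a called gene with a symbol, and 5 lay on the mitochondrial chromosome. All 5 were higher in Ly6Clo, by differences of -1.09 to -1.66, and the Ly6Clo library of mouse 13 was the highest for each of them. All 5 also passed without mouse 13, and their part in the other differences was not tested.

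Without mouse 13, whose Ly6Clo library held few genes, 148 of 14887 genes differed (0.994%), 36 higher in Ly6Chi and 112 higher in Ly6Clo libraries. Of these, 108 were among the 158, 40 were called only without that mouse, and 50 of the 158 were called only with it. The median difference over all genes tested moved from 0.07 to -0.22, so that changes there are to be read against a lower centre. The NK list then had 10 genes higher in Ly6Clo, the killer lectin list 12, the eosinophil, basophil and mast cell list 6 and the class II list 5, while the Ly6Chi monocyte list kept a count of 5. H2-Ab1 (-5.93), Cd9 (-4.06), Gzma (-13.15), Chil3 (3.64) and Elane (9.54, adjusted p = 0.0223) passed with and without mouse 13. With each mouse left out in turn, Elane passed in 3 of 5 fits (largest limma adjusted p = 0.0666) and the others in all 5.

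The same contrast in the 5 mice that received Ac-6-FP was used as a repeat in animals that the vehicle comparison had not used. There, 608 of the same 14690 genes differed (4.14%), 183 higher in Ly6Chi and 425 higher in Ly6Clo libraries. All 158 genes called in vehicle mice had the same sign, as did 60.3% of all genes tested, and 110 of them (69.6%) passed, 26 of the 37 higher in Ly6Chi and 84 of the 121 higher in Ly6Clo. H2-Ab1 differed by -6.04 (adjusted p = 0.00299), Prf1 by -12.58 (adjusted p = 0.00159), Chil3 by 3.28 (adjusted p = 0.00889) and Elane by 7.97 (adjusted p = 0.0349). Ccr2, Prtn3, Itgax and Ccr3, which had not passed in 5 vehicle mice, passed in these (1.12, adjusted p = 0.0407, 4.54, adjusted p = 0.0156, -10.91, adjusted p = 0.00299, and -12.22, adjusted p = 0.00349). Tarm1, Mfsd7a and Esco2, the low genes of the Ly6Chi side, did not pass there (3.91, 2.78 and 2.27, adjusted p = 0.105, 0.279 and 0.589). Neither did Cxcr2 (-3.87, adjusted p = 0.327, against -8.52 in vehicle mice) or Il10, whose difference was of similar size (-7.91, adjusted p = 0.105, against -8.06 in vehicle mice). A test of the difference between the treatments called 0 genes (limma, smallest adjusted p = 0.867). Of all 14690 genes, 693 had an unadjusted p under 0.05, and of the 158 genes 21 did. The 158 were selected in the vehicle mice, which enter this test.

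**Figure D5:**
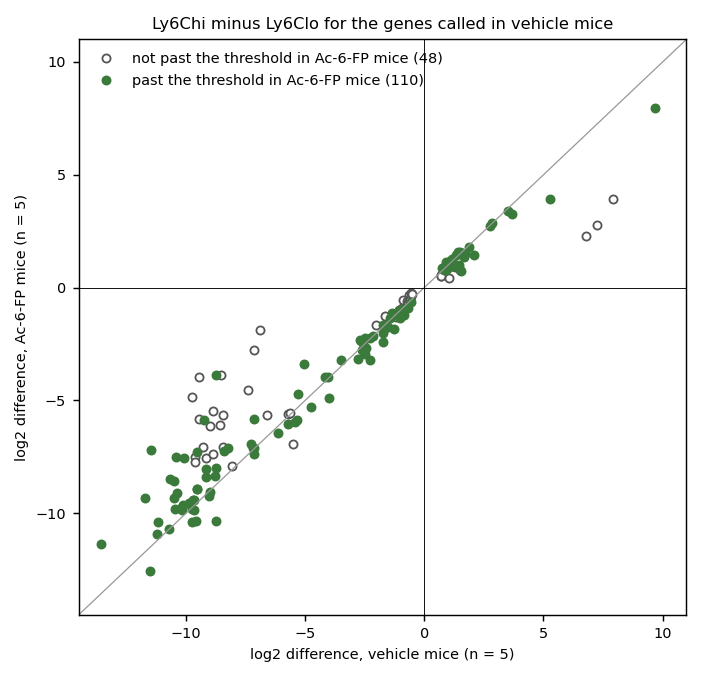
Log2 difference, Ly6Chi minus Ly6Clo, of the 158 genes called in vehicle mice, in 5 vehicle mice (x axis) and in 5 Ac-6-FP mice (y axis), with the line of equal values. All 158 points have the same sign on both axes, filled points mark the 110 that passed in Ac-6-FP mice, and the genes were selected on the x axis.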

How the data were processed

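RNA of sorted liver macrophages was measured in 20 libraries, of which the 10 vehicle libraries enter the comparison. Per the methods and labels, the authors prepared libraries with a low-input kit, aligned reads with STAR 2.4.0 to mm10, counted them on constitutive regions of FAST DB genes and normalized the counts with DESeq2. Whether counting used strand is not given in the sources used here. The deposited values are signal values, gene counts divided by 1 size factor per library, without gene length, for 59311 genes (60.5% without a symbol). Every column belonged to a labelled library. Each value above 0 was a whole multiple of 1 step per library (100.0% within 0.006 normalized counts), which gave back the reads, although the step of the Ly6Chi library of mouse 15 lies close to 1 and could not be checked in this way.

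Values were tested as log2(normalized count + 1) with limma 3.58.1 in R 4.3.3, with the mouse as a block, a trended variance prior and Benjamini-Hochberg adjustment over all 14690 genes whose mean reached 10 in either subset. The titles give 1 Ly6Chi and 1 Ly6Clo library the same number and the study's methods pair the subsets, so both were taken to come from 1 mouse, which is not stated outright. Residuals of libraries of the same mouse correlated at 0.0191 to 0.261, and those of different mice at -0.112 to 0.0833. Alternatives were other pseudocounts, filters and scalings, array weights, a covariate for genes above 0, no block, a constant prior, each mouse left out, and edgeR 4.0.16 and DESeq2 1.42.0 on the recovered reads. Python 3.11.15 was used for the other steps.

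The limma and edgeR steps were tested on simulated data. With a moderate spread they recovered nearly all large changes with the right sign. With the spread estimated per gene from these libraries, both recovered few small changes, and edgeR called unchanged genes more often than its threshold allows. A stop rule that covered this second case was failed by edgeR, and the moderate case was added after that.

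Named genes were the markers of the gate and the comparison, the 12 largest called differences in each direction without overlap, among genes with a symbol, up to 6 called members of a list (8 for NK and killer lectin lists) and up to 4 members of highest level, and the 12 leading genes by edgeR. Some genes of this rule are not reported here. Other genes named, and the lists' members at 0, were chosen after their values were seen. Genes, lists and members were chosen with earlier results of these data known. Lower bounds of a fold set 0 values at 3 reads per library. Promoters come from RefSeq (GRCm38.p6, the build of mm10). P-values of limma rest on the spread of the within-mouse differences over these 5 mice and on the variance prior, which draws on all genes tested.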

Additional observations from a re-analysis of the deposited data

Results flagged for a closer look

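Of 192 groups of 5 libraries examined for the genes named, 27 (14.1%) held a library whose gap to the nearest other was over 0.71 of the group's range. For normally distributed values chance gives about 1 in 20 groups. These values are skewed and often 0, so the share is no measure of an excess. In Ly6Clo, the library of mouse 13 was lowest for Itgam (2.09), F13a1 (0), Cd247 (4.17), Ccr3 (0) and Ccl2 (0), and highest for Klri2 (11199) and Klrg1 (3233). The Ly6Clo library of mouse 12 was lowest for Itgax (0) and highest for Elane (2.48), Fcnb (119) and Mpo (12.4), and that of mouse 11 was highest for Tarm1 (35.0). In Ly6Chi, the library of mouse 11 was highest for Gzma (32.8), Klre1 (7.97), Cd247 (1.77), Il10 (72.6) and Msr1 (3898). The Ly6Chi library of mouse 14 was highest for Klrb1c (48.3), Klrk1 (110) and Cd300e (155) and lowest for Mpo (0). In the other Ly6Chi libraries, mouse 12 was highest for Gzmb (2.14) and lowest for Cd9 (620) and Il1rn (0), mouse 13 was highest for Klri2 (1.76) and lowest for Cd36 (0), and mouse 15 was lowest for Ccl5 (0). All values are normalized counts, and in a group of values at 0 a few reads are enough to stand apart.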

How the results depend on the processing

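The count of 158 genes was within 1.5 times under other pseudocounts, filters, quantile normalization and array weights (118 to 237), and was 199 with no replicate block, that is, without pairing by mouse. It was 315 with a covariate for genes above 0 (145 higher in Ly6Chi, 170 in Ly6Clo), 68 with a constant prior (6 and 62), 67 with edgeR (21 and 46) and 736 with DESeq2 (297 and 439). Leaving out a mouse gave 45 (mouse 15) to 148 (mouse 13), with 69, 72 and 87 without mice 11, 14 and 12. By edgeR, 34 genes passed without mouse 13 and 24 without mouse 15, the latter an alternative chosen after seeing the data. Of 60 named genes that passed, 0 changed sign in any of these settings, and 28 still passed without mouse 15, 48 without mouse 13, 27 with edgeR, and 12 and 15 with edgeR without mice 13 and 15. The difference in genes detected (-159) was 80.3, 142 and 409 without mice 11, 12 and 15, over a range of -1300.5 to 409, leaving out mice. Medians over all tested members of a list changed sign for neutrophil genes (1.30 with a filter at 100, 0.49 without mouse 12, 0.23 without mouse 14, lowest -1.47 without mouse 13), class I genes (-0.061 with array weights, -0.34 without mouse 13, highest 0.69 without mouse 11, -0.32 by edgeR without it), scar-associated genes (0.53 without mouse 12, lowest -1.14 without mouse 13) and transcription factors (0.25 with a filter at 100, 0.46 without mouse 14, lowest -0.63 without mouse 13). Without mouse 13 the medians of the liver endothelial and gate lists also turned, from 0.68 to -0.15 and from 0.012 to -0.26. Itgam turned to -0.036 without mouse 13 (-0.012 by edgeR, highest 2.16 without mouse 15), and Cx3cr1 to 0.02 and 0.066 without mice 11 and 15 (lowest -0.28 without mouse 14) and, by edgeR, to 0.0032 and 0.085 without mice 13 and 15. The causes were not tested. The Ly6Clo library of mouse 13 has the fewest reads, which limits what can be said of low genes there.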
